A study of Mus musculus with 2 samples.

Results

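The 8 mouse genes of troponin, the calcium switch of the muscle thin filament, were described in long-read RNA of the heart. They were Tnnc1 and Tnnc2 (troponin C), Tnni3, Tnni1 and Tnni2 (troponin I), and Tnnt2, Tnnt1 and Tnnt3 (troponin T). Members were chosen by gene name: every transcript model annotated to a listed gene was taken, and the reads of a gene were summed over its models. This gave 117 models in replicate 2 and 97 in replicate 1. They are 8 of 15410 annotated genes with reads in at least 1 library, and 4 of the 8 had reads in both libraries.

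Troponin sits on actin and tropomyosin and lets myosin reach actin only when calcium rises in the cell. Troponin C binds the calcium, troponin I holds the filament in its blocked state and is released when troponin C is loaded, and troponin T ties the other subunits to tropomyosin. Each subunit is made by separate genes in different muscles: Tnnc1 serves heart and slow skeletal muscle, Tnni3 and Tnnt2 serve the heart, Tnni1 and Tnnt1 serve slow skeletal muscle, with Tnni1 also the troponin I of the embryonic heart, and Tnnc2, Tnni2 and Tnnt3 serve fast skeletal muscle. Troponin T and troponin I genes carry very short internal exons near their 5′ ends, and in troponin T several of these are spliced in or out during development.

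Heart tissue came from adult male mice of 18 to 20 months, of the B6CASTF1/J hybrid, whose parent strains are C57BL/6J and CAST/EiJ. The series is 1 group with 2 libraries, named replicate 2 and replicate 1, each prepared from 2 µg of RNA; no treatment or engineered allele is named. Both libraries carry the same donor identifier and the same pair of specimen names, so nothing shows that they came from separate animals. Apart from an edgeR test with a common dispersion, p-values set these libraries against counting error only, and no test between conditions was possible.

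Replicate 2 held 1003999 reads on mouse models and replicate 1 held 688861. A count of 0 allows up to 2.99 CPM (counts per 1e6 mouse reads) in replicate 2 and 4.36 CPM in replicate 1, taking 3 reads as the limit. Each read is 1 sequenced molecule, so CPM was not divided by transcript length, and values per kb are given where genes are compared. Intervals are at 95% confidence (Clopper-Pearson for shares, exact Poisson for levels) and cover counting error only. The tissue label was checked against marker genes. The 8 markers of ventricular cardiomyocytes summed to 48900 CPM in replicate 2 and 47450 CPM in replicate 1. Of 16 skeletal muscle markers, 8 had no read in either library: Myh1, Myh2, Myh4, Myh8, Actn3, Mylpf, Myod1 and Myog. The other 8 had reads, most of them on Tcap (3289 CPM in replicate 2 and 3141 CPM in replicate 1), which the heart also makes. Mybpc2 had 22 and 14 reads, Myl1 16 and 16, Atp2a1 2 and 5, and Casq1 2 and 3, and Myh3, Mybpc1 and Ryr1 had at most 1 in a library.

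The cardiac forms of each subunit carried nearly all troponin reads, but at very unequal levels, with Tnnc1 far above Tnni3 and Tnnt2. Tnnc1, the calcium sensor, had 8666 reads (8631 CPM, interval 8450 to 8820) in replicate 2 and 5477 reads (7951 CPM, interval 7740 to 8160) in replicate 1. Its mean of 8291 ± 481 CPM (SD, n = 2) placed it at rank 9 of all annotated genes. Tnni3, the cardiac inhibitory subunit, had 747 reads (744 CPM, interval 692 to 799) in replicate 2 and 511 reads (742 CPM, interval 679 to 809) in replicate 1. It averaged 743 ± 1.57 CPM (SD, n = 2) and stood at rank 200. Tnnt2, the cardiac tropomyosin-binding subunit, had 534 reads (532 CPM, interval 488 to 579) in replicate 2 and 329 reads (478 CPM, interval 427 to 532) in replicate 1, with a mean of 505 ± 38.4 CPM (SD, n = 2) at rank 266. The order Tnnc1, Tnni3, Tnnt2 was the same in both libraries, and the intervals of these 3 genes did not overlap within either library.

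**Figure D1:**
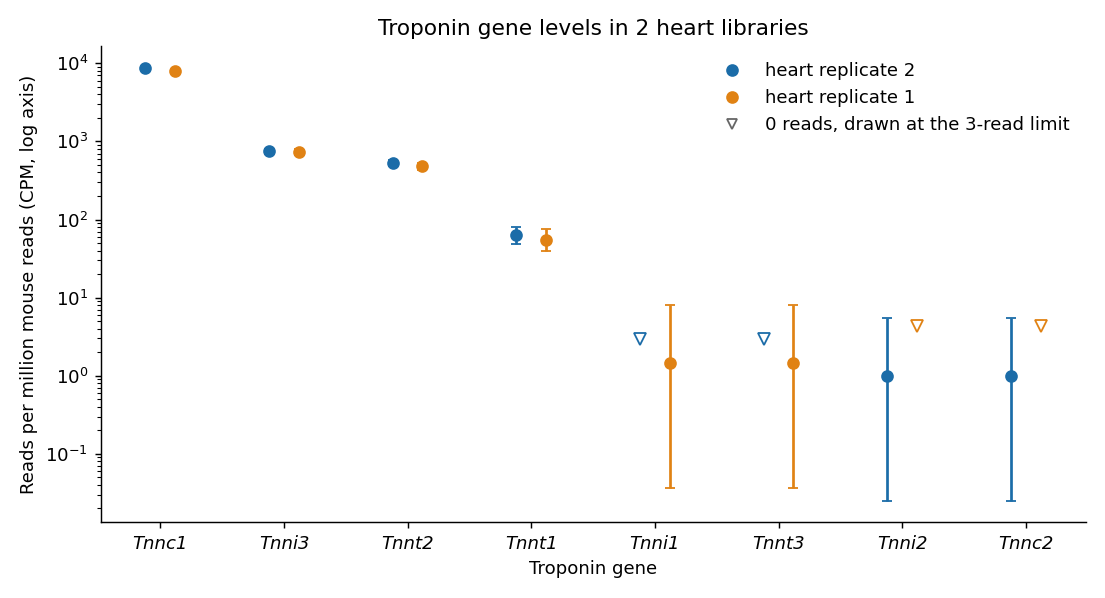
Reads per 1e6 mouse reads (CPM, log axis) of the 8 troponin genes in replicate 2 (blue, left of each pair) and replicate 1 (orange), with exact Poisson 95% intervals; open triangles mark 0 reads, drawn at the limit that 3 reads give. Tnnc1 stands at 8631 and 7951 CPM, Tnni3 and Tnnt2 between 478 and 744 CPM, Tnnt1 at 62.8 and 55.2 CPM, and the other 4 genes at 0 or 1 read.

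The reads of Tnnc1 outnumbered those of Tnni3 by 11.6 to 1 (interval 10.8 to 12.5) in replicate 2 and by 10.7 to 1 (interval 9.79 to 11.8) in replicate 1. Against Tnnt2 the ratio was 16.2 (interval 14.9 to 17.7) in replicate 2 and 16.6 (interval 14.9 to 18.7) in replicate 1. Tnni3 exceeded Tnnt2 by a ratio of 1.40 (interval 1.25 to 1.57) in replicate 2 and 1.55 (interval 1.35 to 1.79) in replicate 1. Per kb of the reference transcript, which is 721 nt long for Tnnc1, 912 nt for Tnni3 and 1200 nt for Tnnt2, these ratios were wider. Tnnc1 to Tnni3 came to 14.7 and 13.6, Tnnc1 to Tnnt2 to 27.0 and 27.7, and Tnni3 to Tnnt2 to 1.84 and 2.04, in replicate 2 and replicate 1 in that order. The protein subunits form a complex of equal parts, and the read ratios on either scale were far from equality for Tnnc1. RNA reads do not measure protein, and the genes differed in how far their reads ran towards the 5′ end, as described below.

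Tnnt1, the slow skeletal troponin T, was the only gene of a non-cardiac form with more than 1 read in a library. It had 63 reads (62.8 CPM, interval 48.2 to 80.3) in replicate 2 and 38 reads (55.2 CPM, interval 39.0 to 75.7) in replicate 1, or 59.0 ± 5.36 CPM (SD, n = 2), at rank 2373. Tnni1, the slow skeletal and embryonic troponin I, had 0 reads in replicate 2 and 1 in replicate 1, and so did Tnnt3, the fast skeletal troponin T. Tnni2, the fast skeletal troponin I, and Tnnc2, the fast skeletal troponin C, each had 1 read in replicate 2 and 0 in replicate 1. None of these 4 genes exceeded the limit of 3 reads in either library.

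Within each subunit the cardiac gene therefore made up most of the RNA. Tnnc1 took 99.99% of troponin C reads in replicate 2 and 100% in replicate 1. Tnni3 took 99.87% of troponin I reads (interval 99.26 to 100) in replicate 2 and 99.8% (interval 98.92 to 100) in replicate 1. For the embryonic form Tnni1, the 0 reads of replicate 2 allow up to 0.401% of troponin I reads. Troponin T was the subunit with a second paralog: Tnnt2 took 89.45% (interval 86.7 to 91.8) in replicate 2 and 89.4% (interval 85.8 to 92.35) in replicate 1. Tnnt1 took the other 10.55% (interval 8.205 to 13.3) in replicate 2 and 10.33% (interval 7.412 to 13.9) in replicate 1. The libraries overlapped widely in this share.

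Troponin I and troponin T genes lie next to each other in pairs on the mouse genome, and the members of a pair differed in level. Tnnt2 (chromosome 1, 135836354 to 135852260, plus strand; all positions are mm10) lies 25.4 kb from Tnni1 on the same strand, and had 534 and 329 reads against 0 and 1 for Tnni1, in replicate 2 and replicate 1. Tnni3 (chromosome 7, 4518305 to 4524229, minus strand) lies 1.92 kb from Tnnt1 (4504570 to 4516382) on the same strand. Here both genes had reads in both libraries, 747 and 511 for Tnni3 and 63 and 38 for Tnnt1. Tnnt3 and Tnni2, the fast skeletal pair on chromosome 7, lie 54.4 kb apart and had 1 read between them in each library. Tnnc1 (chromosome 14, 31208312 to 31211729, plus strand) and Tnnc2 (chromosome 2) have no troponin neighbour in the listed set.

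Between the libraries, 4 of the 8 troponin genes had enough reads to be tested, and Tnnc1 was the only one of these that passed. The test, an exact binomial test (two-sided, Benjamini-Hochberg adjusted p under 0.05), took in 8836 genes whose reads in the libraries summed to 10 or more, and 297 (3.36%) passed. Of these, 120 (1.36%) were higher and 177 (2.00%) lower in replicate 2. Scaling by TMM factors turned this split to 168 higher and 124 lower. Tnnc1 was higher in replicate 2 by 0.12 on the log2 scale (pseudocount 1 CPM), with an adjusted p of 0.000134 in the exact binomial test. Under an edgeR exact test whose common dispersion (0.0195) was estimated from the same 2 libraries, Tnnc1 was not called (log2 0.18, adjusted p = 1) and 25 genes were. That dispersion holds the differences under test, so a gene not called there is not shown to be unchanged. Under the other 7 scalings, minimums and choices of reads tried, Tnnc1 was called, with adjusted p from 7.08e-11 to 0.0397. Tnni3 (log2 0.004), Tnnt2 (0.16) and Tnnt1 (0.18) had adjusted p values of 1, 0.597 and 0.936 in the exact binomial test. The ratios of Tnnt2 and Tnnt1 were larger than that of Tnnc1, on far fewer reads. Passing this test thus depends on read number, and the result does not show that Tnnc1 differed more than the others.

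Markers of the heart chambers also differed between the libraries. Of 4 atrial markers none was higher in replicate 2 and 2 were lower, Nppa (log2 -0.51) and Myl7 (log2 -0.43), and the list summed to 3144 CPM in replicate 2 and 4121 CPM in replicate 1. Of 8 ventricular markers 2 were higher in replicate 2, Pln (log2 0.44) and Myl2 (log2 0.19), and 2 were lower, Myh6 (log2 -0.14) and Actc1 (log2 -0.15), beside 3.36% called over all genes. The edgeR exact test called none of these atrial and ventricular markers. The 16 skeletal muscle markers summed to 3333 CPM in replicate 2, against 3198 CPM in replicate 1, and the 5 smooth muscle markers summed to 132 and 119 CPM. None of the tested skeletal or smooth muscle markers was called. The part of these differences in the Tnnc1 result was not tested, and in bulk tissue fewer cells of a type cannot be told apart from less RNA per cell.

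The partners of troponin on the thin filament differed between the libraries in both directions. Of 12 tested genes 1 was higher in replicate 2 and 2 were lower, with a median log2 ratio of -0.18, against -0.06 and 3.36% called over all genes tested. The edgeR exact test called none of the 12. Tpm1, the main cardiac tropomyosin that troponin T binds, stood at 10850 CPM in replicate 2 against 11880 CPM in replicate 1, and was lower by 0.13 on the log2 scale with an adjusted p of 8.53e-08 in the exact binomial test. Actc1, cardiac actin, had 2976 and 3310 CPM (log2 -0.15), and Acta1, skeletal actin, had 856 and 614 CPM (log2 0.48), in replicate 2 and replicate 1. Mybpc3, cardiac myosin-binding protein C, had 436 and 507 CPM, and Tmod1, which caps the pointed end of the filament, had 191 and 232 CPM; neither passed the test.

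Among 16 tested enzymes that phosphorylate, dephosphorylate or cleave troponin, or subunits of these enzymes, 1 was lower in replicate 2 and none was higher, with a median log2 ratio of -0.15, against 3.36% called and a median of -0.06 over all genes tested. The edgeR exact test called none of the 16. Prkar1a, a regulatory subunit of protein kinase A, stood at 577 CPM in replicate 2 against 748 CPM in replicate 1 (log2 -0.37, adjusted p = 0.00122 in the exact binomial test). Prkaca, the catalytic subunit that phosphorylates troponin I during adrenergic stimulation, had 505 and 621 CPM with an adjusted p of 0.0511 in the same exact test. The phosphatase catalytic subunits Ppp2ca (304 and 362 CPM), Ppp1ca (310 and 327 CPM) and Ppp1cb (280 and 279 CPM) did not pass it, nor did Tnni3k (92.6 and 102 CPM), a cardiac kinase named for its binding to troponin I. Of 13 splicing regulators known to act on troponin T or on heart exons, none was called, against 3.36% over all genes tested, with a median log2 ratio of 0.07. At an unadjusted p under 0.05 the exact binomial test had 1 of them, Srsf1 (22 and 32 reads, log2 -1.05). The share of all genes at that unadjusted threshold was not computed, so this count is not a result about the list. The edgeR exact test called 0 of the 13. Qk (293 and 283 CPM), Rbm24 (201.2 and 200.3 CPM), Mbnl2 (140 and 139 CPM) and Rbm20 (69.7 and 56.6 CPM) led the list in replicate 2 and replicate 1.

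Genes closest in level were found over both libraries by the distance of log2(CPM + 1). For Tnnc1 they were Ndufa4, a mitochondrial respiratory chain protein (9269 CPM in replicate 2 and 7870 CPM in replicate 1), Myl3, the ventricular essential myosin light chain (6961 and 7267 CPM), and Ckm, muscle creatine kinase (6552 and 8549 CPM). For Tnni3 they were Acat1, Crat and Egln1, at distances of 0.032 to 0.054 log2 units, and for Tnnt2 Mrpl42, Scp2 and Ndufb6, at 0.036 to 0.052. With 2 libraries this measures likeness of level only.

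The troponin genes differed widely in the kind of transcript model that held their reads. In the authors' tables a model is known (it matches an annotated transcript), an incomplete splice match (part of an annotated chain of introns), a new combination of known splice sites, or a chain with a new splice site. Known models held 97.3% of Tnnc1 reads in replicate 2 and 97.7% in replicate 1. They held 16.7% of Tnni3 reads (interval 14.1 to 19.6) in replicate 2 and 13.3% (interval 10.5 to 16.6) in replicate 1. Tnnt2 had no read on a known model, 0 of 534 in replicate 2 and 0 of 329 in replicate 1, and neither did Tnnt1, 0 of 63 and 0 of 38. Over all mouse reads the known share was 69.3% in replicate 2 and 72.2% in replicate 1, below that of Tnnc1 and above that of the other 3 genes.

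The reads off known models fell into different classes in each gene. In Tnni3, chains with a new splice site held 41.2% in replicate 2 and 46.8% in replicate 1, against 2.61% and 2.76% of all mouse reads. Incomplete matches held another 39.4% and 35.6% of Tnni3 reads. In Tnnt2, incomplete matches held 93.8% in replicate 2 and 91.8% in replicate 1, and in Tnnt1 96.8% and 86.8%, against 14.3% and 12.2% of all mouse reads. No troponin read was on a model that the tables class as genomic, a class that held 6.16% and 5.66% of all mouse reads.

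**Figure D2:**
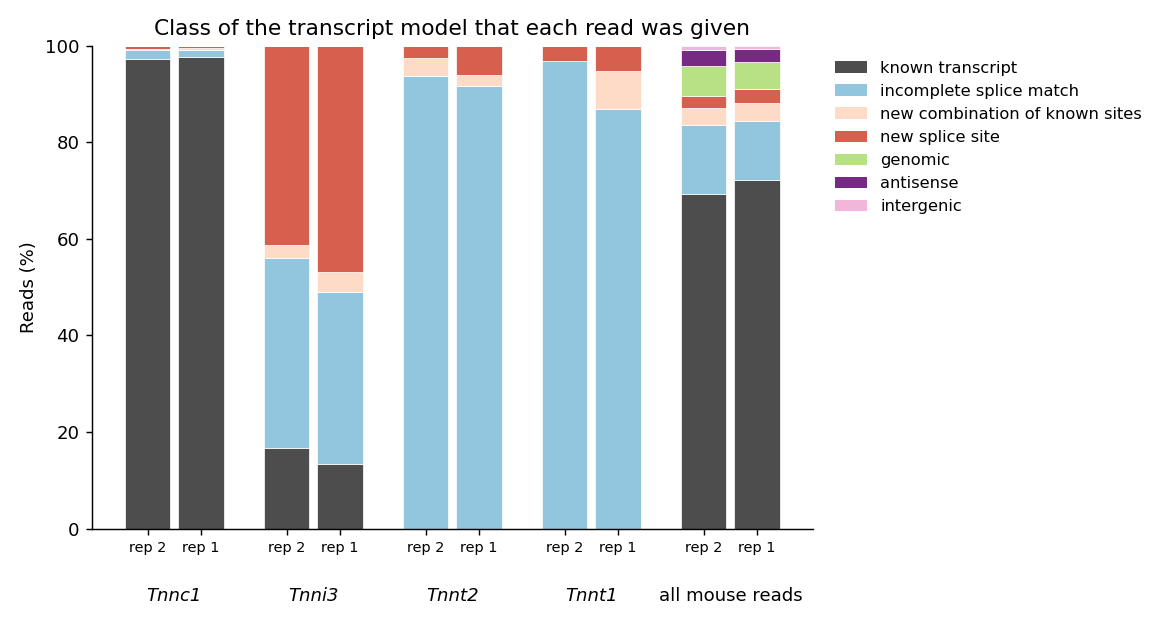
Percent of reads by class of the transcript model that held them, for Tnnc1, Tnni3, Tnnt2, Tnnt1 and all mouse reads, with replicate 2 (rep 2) left of replicate 1 (rep 1). Known models (dark grey) fill over 97% of Tnnc1 and are absent from Tnnt2 and Tnnt1, where incomplete splice matches (blue) fill 86.8% to 96.8%; new splice sites (red) stand out in Tnni3.

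Tnnc1 was read as a single dominant transcript. Tnnc1-202, with 6 exons and the full coding sequence, held 8364 of 8666 reads (96.5%) in replicate 2 and 5306 of 5477 (96.9%) in replicate 1. Tnnc1-203, annotated as a target of nonsense-mediated decay and with a shorter exon 5, held 66 and 44 reads. The other 8 models with 10 or more reads held 5 to 47 reads in a library, and 5 of them matched the 3′ part of Tnnc1-202. Of its reads 98.2% in replicate 2 and 98.5% in replicate 1 reached exon 1, and 99.9% in each the last exon. Here and below a read reaches or overlaps an exon if its transcript model does, as the ends of single reads were not used. The share of the top transcript was not called different between the libraries (two-sided Fisher's exact test, adjusted p = 1), in a test that called 80 of 4087 genes (1.96%). Nor was that of Tnni3, Tnnt2 or Tnnt1, and the unadjusted p of the 4 genes ran from 0.0555 to 0.749 in Fisher's exact test.

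In Tnni3, Tnnt2 and Tnnt1 no read carried a whole annotated coding chain of introns in either library. For Tnni3 this was 0 of 747 in replicate 2 and 0 of 511 in replicate 1, which allows up to 0.402% and 0.587%. For Tnnt2 it was 0 of 534 and 0 of 329, which allows up to 0.562% and 0.912%. The reference coding transcript of each of these 3 genes has an internal exon of 11 to 14 nt. Troponin T and troponin I genes carry such exons as families, so these are not 3 independent cases. The shortest internal exon of Tnnc1 has 31 nt. For a chain with such a short exon, the limits above take it that the exon would be recorded if present, which was not tested. Few Tnnt2 reads (25 of 534 in replicate 2 and 20 of 329 in replicate 1) and Tnnt1 reads (1 of 63 and 4 of 38) reached exon 1 of a coding transcript, so most reads of these genes could not carry a whole chain whether or not they held short exons.

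The short exons of Tnni3, Tnnt2 and Tnnt1, and bases that Tnni3 models added next to them, are shown because the exon and edge counts that follow refer to them. All were read from the GENCODE M21 transcript sequences (mm10), 5′ to 3′ on the gene's strand; capitals mark the exon, or the bases added to an exon, and lower case the bases next to it in the transcript.
Tnni3 13-nt exon, chr7:4522070-4522082, minus strand, starting at the ATG of exon 1: atggctgatgaGAGCAGCGATGCGgctggg
Tnni3 4 nt added after exon 1, chr7:4522301-4522304, minus strand: GTATgtgaatcttcgt
Tnni3 16 nt added before exon 3, chr7:4521903-4521918, minus strand: tgatgtagCCTGCTTCAATTCCAGgctggg
Tnni3 24 nt added after the 13-nt exon, chr7:4522046-4522069, minus strand: GTGAGCTGTGAGCTAAGAAGTGGGgtaggg
Tnnt2 11-nt exon, chr1:135841901-135841911, plus strand: gtacgaggaGGAACAGGAAGagcaagagg
Tnnt2 12-nt exon, chr1:135842015-135842026, plus strand: aacaggaagAAGCTGTGGAAGagcaagagg
Tnnt2 30-nt exon, chr1:135843785-135843814, plus strand: AGGAAGACTGGAGTGAAGAAGAGGAGGACG
Tnnt1 14-nt exon, chr7:4514213-4514226, minus strand: tatgaggaGGAGCAGGCAGAAGatgaggaa

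In Tnni3 the 13-nt exon 2 was in no model with both of its annotated edges. Reads joining exon 1 to exon 3 numbered 316 in replicate 2 and 257 in replicate 1, and 0 held it in each, which allows up to 0.949% in replicate 2 and 1.17% in replicate 1. This limit takes it that a 13-nt exon would be recorded if present, which was not tested. Over all genes, models with an internal exon of 15 nt or less held 74 reads in replicate 2 and 50 in replicate 1. Only 1 read, in replicate 1, joined exon 1 to exon 3 at their annotated edges with nothing between. All other reads used at least 1 edge that differs from those of Tnni3-201. In 196 of 316 reads (62.0%, interval 56.4 to 67.4) in replicate 2 and 159 of 257 (61.9%, interval 55.6 to 67.8) in replicate 1, exon 1 was 4 nt longer and joined exon 3 directly. The printed intron start shows that gt follows these 4 bases, so the new edge has the bases that nearly all introns begin with.

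Other Tnni3 edges were less frequent and had like shares in both libraries. Exon 1 was 14 nt longer in 13.9% in replicate 2 and 10.9% in replicate 1, and exon 3 began 16 nt earlier in 8.54% and 7.78%. The 13-nt exon was kept with 24 nt more at its 3′ edge, as a 37-nt exon, in 6.65% and 8.56%. Both exons 1 and 3 were longer, by 4 and 16 nt, in 4.11% and 5.45%, and exon 3 began 24 nt earlier in 2.85% and 1.95%. All 6 of these forms had GT after the upstream edge and AG before the downstream edge wherever the intron bases could be read from annotated transcripts. In each form the intervals of the libraries overlapped.

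**Figure D3:**
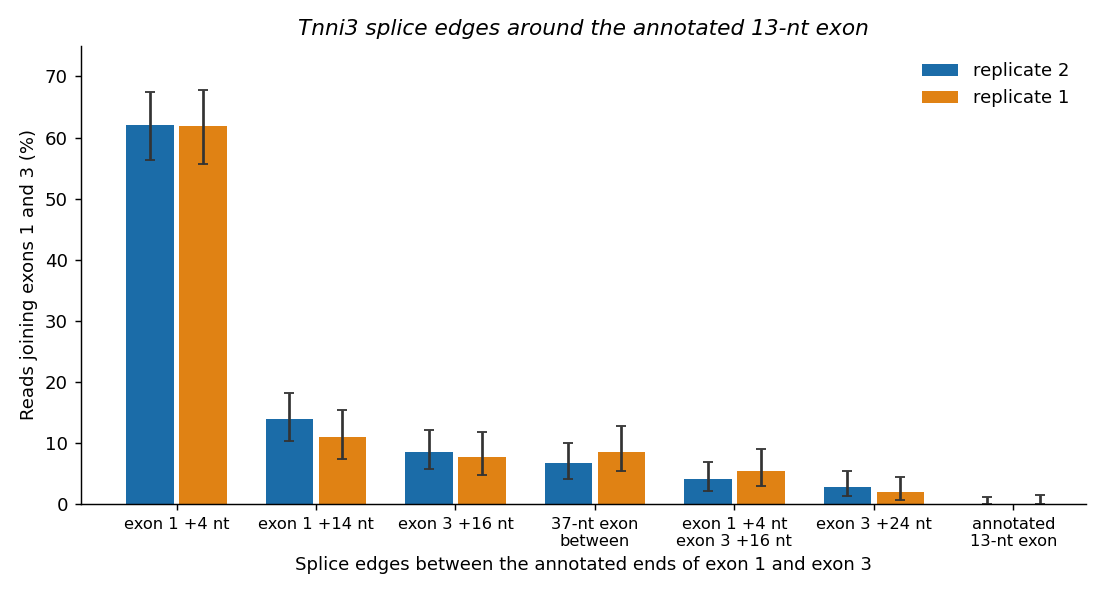
Percent of Tnni3 reads joining exons 1 and 3 by the splice edges they used, for replicate 2 (blue, left) and replicate 1 (orange), with 95% Clopper-Pearson intervals; the bars include every form with 10 or more reads. Exon 1 lengthened by 4 nt holds 62.0% and 61.9%, and the annotated 13-nt exon on the right holds 0 reads in both libraries.

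The lengths of these forms relate to the reading frame as follows. The 13 bases of the annotated exon leave a remainder of 1 on division by 3, and the number of bases between the annotated edges of exons 1 and 3 left the same remainder in 250 of 316 reads (79.1%, interval 74.2 to 83.5) in replicate 2. In replicate 1 it was 206 of 257 (80.2%, interval 74.7 to 84.9). The forms with 4, 16 and 37 nt are in this group, and those with 14, 20 and 24 nt are not. Whether RNA molecules in these hearts have this structure was not tested.

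The most used Tnni3 model was the 7-exon chain with the 4-nt longer exon 1, with 194 reads (26.0%) in replicate 2 and 158 (30.9%) in replicate 1. The share did not pass Fisher's exact test across all genes (unadjusted p = 0.0555). A single-exon model of the last exon, 147 nt, followed with 191 and 126 reads. Tnni3-204 and Tnni3-202, both annotated as retaining introns, held 96 and 49 reads and 29 and 19 reads, and together they made up all known Tnni3 reads in both libraries. Their introns are also introns of the coding transcript Tnni3-201, so by introns alone these reads cannot be told apart from 3′ pieces of the coding RNA. Incomplete chains of 4 and 6 exons that match the 3′ part of the coding transcript held 70 and 41 reads and 29 and 8 reads.

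Reads of Tnni3 thinned towards the 5′ end but many spanned the gene. Of all Tnni3 reads 42.6% (interval 39.0 to 46.2) in replicate 2 and 50.3% (interval 45.9 to 54.7) in replicate 1 reached exon 1 of a coding transcript, and 100% reached the last exon in both. Exon 7 was reached by 74.4% and 75.3%, and exon 3 by 47.0% and 52.4%.

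Tnnt2 was read mostly from its 3′ end. Of its reads 4.68% (interval 3.05 to 6.83) in replicate 2 and 6.08% (interval 3.75 to 9.23) in replicate 1 reached exon 1 of a coding transcript, against 99.3% and 99.4% at the last exon. In the 16-exon reference transcript Tnnt2-209, exon 11 was overlapped by 51.7% and 54.7%, exon 10 by 24% and 26.1%, and exon 6 by 14.8% and 17.9%. The exons between exon 2 and exon 6 were overlapped by under 0.4% in each library. The fall was in steps, and the widest in both libraries was that between exons 11 and 10.

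**Figure D4:**
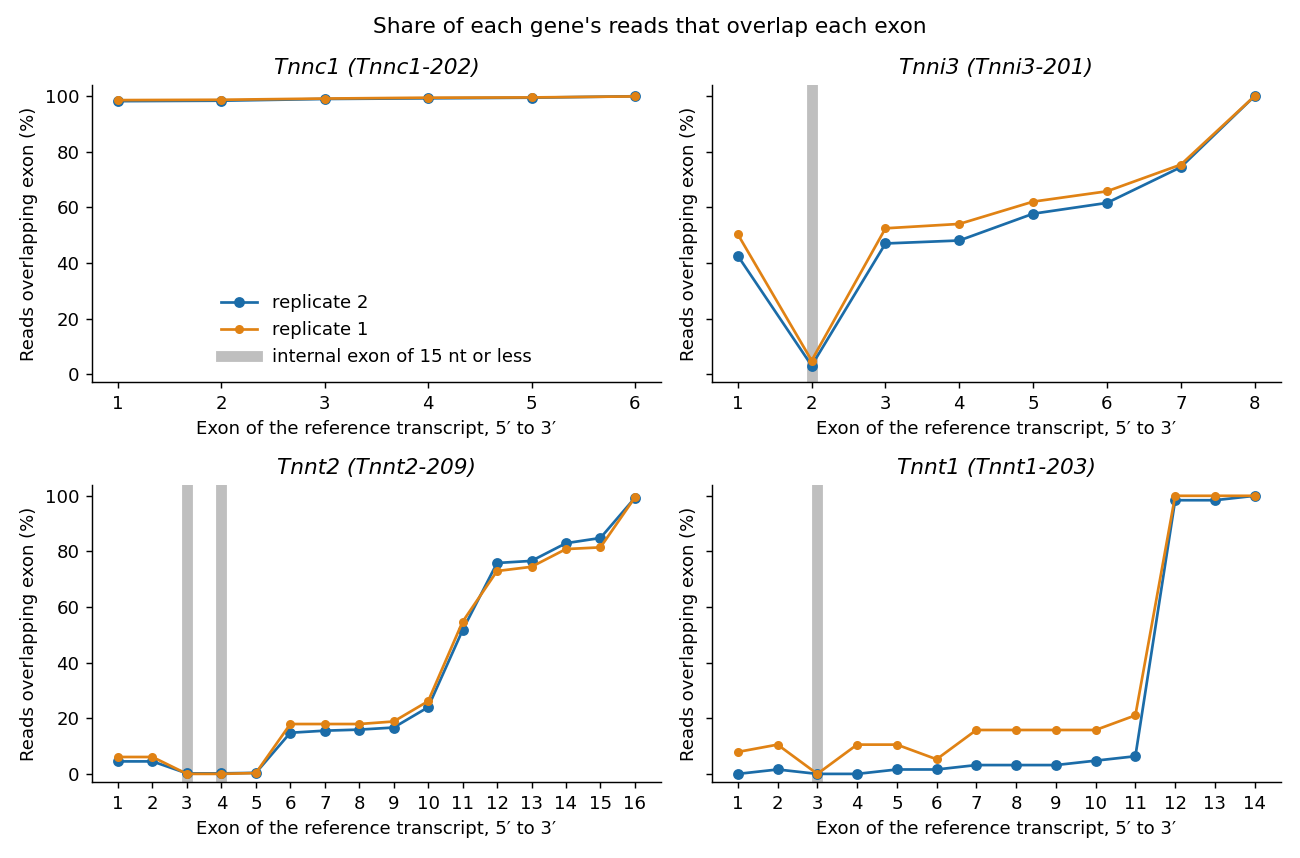
Percent of each gene's reads whose model overlaps each exon of its reference transcript, from exon 1 on the left to the last exon, for replicate 2 (blue) and replicate 1 (orange) in Tnnc1, Tnni3, Tnnt2 and Tnnt1. Grey bands mark internal exons of 15 nt or less. Tnnc1 stays above 98% throughout, Tnni3 drops to 3.08% and 4.89% at its 13-nt exon and returns to 47.0% and 52.4% beyond it, and Tnnt2 and Tnnt1 fall towards exon 1.

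The most used Tnnt2 model had 6 exons from the 78-nt exon 11 to the last exon, with 135 reads (25.3%) in replicate 2 and 87 (26.4%) in replicate 1. The next had 4 exons, the upstream one running 1371 nt through the intron before exon 13, with 102 reads (19.1%) and 46 (14%). The introns of this chain are also in 10 annotated Tnnt2 transcripts. By introns alone its reads cannot be told apart from reads that start in exon 13. The last exon alone held 78 and 58 reads, and an 11-exon chain from the 90-nt exon 6 held 47 and 27. Chains of 7, 3, 5 and 2 exons held 36 and 23, 34 and 20, 15 and 14, and 10 and 3 reads. A further 6-exon chain from exon 11 held 10 and 7 reads. It had an exon 12 of 115 nt in place of the annotated 111 nt. Although classed as an incomplete splice match, this chain was found in no annotated Tnnt2 transcript. The only model reaching exon 1 with 10 or more reads in both libraries together had 13 exons, of which exon 2 was 56 nt long and joined directly to the 90-nt exon, with 8 and 6 reads. Annotated internal exons with the same start as this exon 2 are 52 and 53 nt long, so its 3′ edge differs from theirs. No annotated transcript holds this chain.

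The 5′ cassette region of Tnnt2, which encodes part of the acidic N-terminal region of cardiac troponin T, was covered by few reads. The 11-nt and 12-nt exons were each in 0 of 21 covering reads in replicate 2 and 0 of 18 in replicate 1, which allows up to 14.3% and 16.7%. A 9-nt exon nearer the 3′ end (chr1:135850379-135850387), in 7 of 12 coding transcripts, had more covering reads. It was in 0 of 300 in replicate 2 and 0 of 193 in replicate 1, which allows up to 1% and 1.55%. Whether these exons were skipped in the RNA was not tested. The 30-nt exon, known to be included in the embryonic heart and skipped in the adult heart, was in 0 of 21 reads in replicate 2 and 1 of 18 (5.56%, interval 0.141 to 27.3) in replicate 1. The 90-nt exon after it was in 20 of 22 and 18 of 18 reads. For the 30-nt exon this allows an inclusion of up to 14.3% in replicate 2, by the limit of 3 reads, and 27.3% in replicate 1, by the upper end of the interval. The internal Tnnt2 exons that every spanning coding transcript holds, of 34 to 117 nt, were in 87.7% to 100% of covering reads in the libraries. An exon counted only with both of its annotated edges. The lowest share was that of the 111-nt exon 12, in 249 of 276 reads in replicate 2 and 157 of 179 in replicate 1. Models that held this exon at a length of 115 nt were counted as without it. The remaining reads are therefore not a share of skipping.

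Tnnt1 reads came mostly from the last 3 exons. A 3-exon model whose upstream exon is 504 nt long, of which 91 nt are annotated as exon 12, held 57 of 63 reads (90.5%, interval 80.4 to 96.4) in replicate 2 and 30 of 38 (78.9%, interval 62.7 to 90.4) in replicate 1. The introns of this model are also in 7 annotated Tnnt1 transcripts. By introns alone its reads cannot be told apart from reads that start in exon 12. Exon 11 was overlapped by 6.35% and 21.1% of reads. Exon 1 of a coding transcript was reached by 1 read in replicate 2 and 4 in replicate 1. The 10.55% and 10.33% of troponin T reads that carried the Tnnt1 name are thus mainly reads of this 3′ form. Its 14-nt exon was overlapped by no read in either library.

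The share of reads on a whole annotated coding chain was then described over all other multi-exon coding genes by their shortest internal exon, a look added after the troponin values were known and with the 8 troponin genes left out. A chain counted as whole if it was that of any coding transcript of the gene, including one without the short exon. Among genes with at least 20 reads in a library, those whose reference transcript has an internal exon of 15 nt or less had a median of 2.04% of reads on a whole chain in replicate 2 (47 genes) and 0% in replicate 1 (38 genes). For a shortest exon of 16 to 30 nt the medians were 63.6% (263 genes) and 65.9% (220 genes). For 31 to 60 nt they were 74.1% (1613 genes) and 77.8% (1307 genes), and for longer ones 78.6% (2790 genes) and 82.2% (2282 genes). Tnnc1, whose shortest internal exon has 31 nt, stood at 96.5% and 96.9%, above the upper quartile of the genes of 31 to 60 nt, 86.5% and 89.0%. With Tnni3, Tnnt2 and Tnnt1 counted in, the median for exons of 15 nt or less was 0.541% (50 genes) and 0% (41 genes).

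No read on a whole coding chain was seen in 22 of the 47 other genes with an exon of 15 nt or less in replicate 2 and in 20 of the 38 in replicate 1. Among genes with a shortest exon of 61 nt or more it was 66 of 2790 and 44 of 2282. Transcript length and number of exons differ between these bins: with the troponin genes counted in, the median reference transcript was 3202 nt long with 14.5 exons in the shortest bin and 2340 nt with 7 exons in the longest bin in replicate 2. The reference transcripts of Tnnc1, Tnni3, Tnnt2 and Tnnt1 are all shorter than 1500 nt. Only 8 other genes with an exon of 15 nt or less had so short a transcript, and they varied widely, with 0% to 94.8% on a whole chain (median 28.4%) in replicate 2 and 0% to 97.4% (median 29.4%) in replicate 1, and 3 of the 8 at 0 in each. Short transcripts of the longest bin had medians of 88.5% (731 genes) and 90.4% (621 genes). Of all reads on models with 3 or more exons, those on a model with an internal exon of 15 nt or less numbered 74 (0.00997%) in replicate 2 and 50 (0.00927%) in replicate 1. Known models held 19 and 14 of these. A high share on a whole chain therefore need not mean that the short exon was read. The genes share the libraries and the read processing, so these counts are a description and no test was made. The part of length, exon number and read end in them was not tested.

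**Figure D5:**
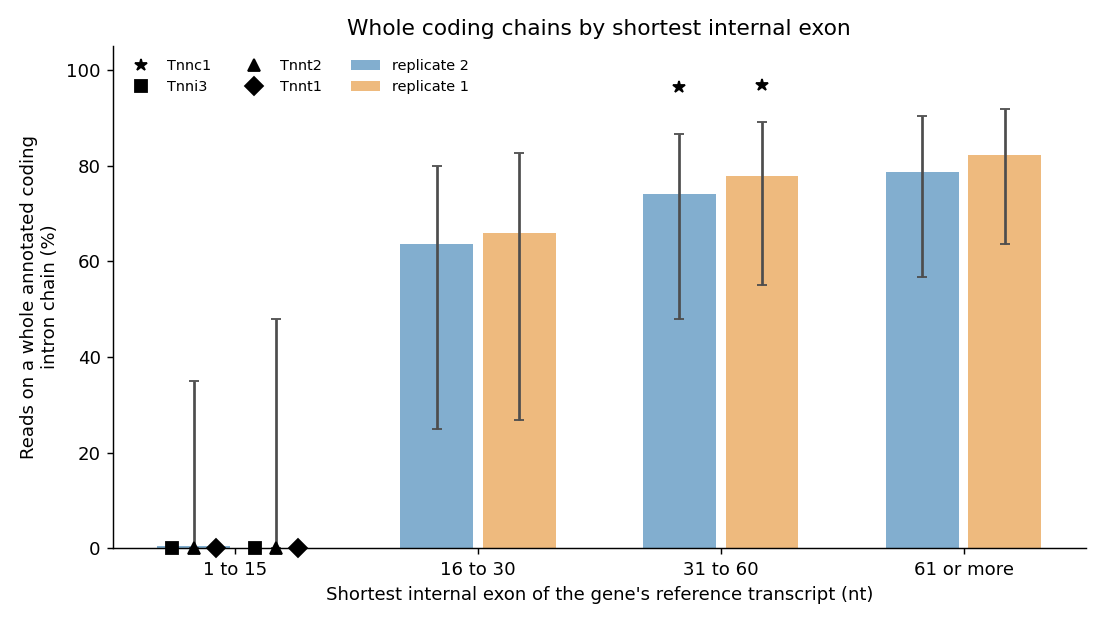
Percent of a gene's reads on a whole annotated coding chain of introns, by the shortest internal exon of its reference transcript, as the median over genes with at least 20 reads, troponin genes included (bars; whiskers are the quartiles) in replicate 2 (blue, left) and replicate 1 (orange); black symbols are the troponin genes. Tnni3, Tnnt2 and Tnnt1 lie at 0 in the bin of 1 to 15 nt, where the medians are 0.541% and 0%, and Tnnc1 lies at 96.5% and 96.9% in the bin of 31 to 60 nt.

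Models found in both libraries held most of the reads of the 4 genes, although many models were seen once. Of 41 Tnnc1 models 22 were found in both libraries and held 99.7% of its reads in replicate 2 and 99.9% in replicate 1. For Tnni3 it was 16 of 31 models with 98.9% and 98.2% of reads, and for Tnnt2 22 of 64 with 94.4% and 95.4%. Tnnt1 had 2 of 12 models in both, with 92.1% and 84.2%. Models with 1 read in both libraries together numbered 15 in Tnnc1, 14 in Tnni3, 39 in Tnnt2 and 9 in Tnnt1. A model with many reads is likely to be found in both libraries, and a model with 1 read cannot be. The same shares were not computed over all genes, so these counts are not shown to be particular to troponin.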

How the data were processed

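The deposited files of a library hold raw read counts of transcript models and the exons of each model; per the file headers and labels, coordinates are mm10 and known models come from GENCODE M21. Sources used here do not name the aligner or filters. Gene counts were summed over the models of a gene name. CPM was computed per 1e6 mouse reads, spike-ins left out. New spliced models were matched between libraries by intron chain. The reference transcript of a gene was its coding transcript with the longest coding sequence.

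Replicate 2's part of each gene's reads was set against its part of all mouse reads by a two-sided exact binomial test, for genes with a sum of 10 or more reads. Top-transcript shares were set against each other by Fisher's exact test where each library had 20 or more reads of the gene. Both ran over all genes with Benjamini-Hochberg adjustment (scipy 1.17.1, Python 3.11.15). edgeR 4.0.16 and DESeq2 1.42.0 (R 4.3.3) gave alternative scalings, and edgeR an exact test with a common dispersion. Both tests were tested on simulated data. Members and lists were chosen with earlier results of these data known. All members and their models with at least 10 reads were described, the lists by up to 6 genes with the highest mean CPM, and 3 genes of like level for each cardiac gene. A sequence and the result on it are not reported here.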

Additional observations from a re-analysis of the deposited data

How the results depend on the processing

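The count of genes called between the libraries fell to 25, against 297, under edgeR's exact test with a common dispersion, where Tnnc1 was no longer called. The count of genes with a different top-transcript share fell to 2, against 80, without genomic and incomplete models. The log2 ratio of Tnni3 turned to -0.035 with ERCC scaling and -0.018 without genomic and incomplete models, and that of Tnnt2 to -0.19 in that setting as well; neither gene was called in any setting, and the cause was not tested. Levels depend on the reads counted. On known transcripts only, mean CPM was 11440 for Tnnc1, 158 for Tnni3 and 0 for Tnnt2 and Tnnt1, and without genomic and incomplete models it was 10580, 602, 46.7 and 5.93. Per kb, means were 11500 for Tnnc1, 815 for Tnni3 and 421 for Tnnt2, and the mean ratios were 14.1, 27.4 and 1.94 for Tnnc1 to Tnni3, Tnnc1 to Tnnt2 and Tnni3 to Tnnt2. The Tnni3 share of troponin I was 100% on known transcripts only, where that of Tnnt2 could not be given, and the Tnnt2 share of troponin T was 88.2% per kb. With a minimum of 50 reads, an alternative chosen after seeing the data, the median for genes with very short exons was 0.801%, against 0.27%, and without the troponin genes, likewise chosen after seeing the data, it was 1.02% (means of the libraries' medians). No paired analysis was possible because the libraries form 1 group. Leaving out a replicate returns the other library's value, which shows nothing of stability: Tnnc1 ranged from 7951 to 8631 CPM, Tnni3 from 742 to 744, Tnnt2 from 478 to 532 and Tnnt1 from 55.2 to 62.8; no difference can be given from 1 library.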

Other observations

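A new single-exon locus lay on the strand opposite Tnnt2. The authors' model is 639 nt long and lies almost wholly within an intron of Tnnt2 on chromosome 1. The 1371-nt upstream exon of the second most used Tnnt2 model runs through the same bases on the other strand. The new locus had 343 reads (342 CPM, exact Poisson interval 306 to 380) in replicate 2 and 95 reads (138 CPM, interval 112 to 169) in replicate 1, a ratio of 2.48 (interval 1.97 to 3.14). How the strand of a read was set is not given in the sources used here. These reads came to 64.2% of the number of Tnnt2 reads in replicate 2 and 28.9% in replicate 1. Of the 8 genes, Tnnt2 was the only one with reads of other names on the opposite strand within its span. On its own strand 2 reads in replicate 2 and 1 in replicate 1 overlapped its exons under another name, and 2 and 0 reads did so for Tnni3.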
